A study of Mus musculus with 18 samples.

Results

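The genes described here are 10 transcription factors known for founding blood and vessel cells: Etv2, Tal1, Lmo2, Fli1, Erg, Gata1, Gata2, Runx1, Klf1 and Myb. They were taken by gene symbol from an array of 45101 probe sets, where 20 probe sets carried these symbols, and all 10 genes passed the filter on low signal, among 13379 genes tested of 18193 with a probe set. D3 cells, a mouse embryonic stem cell line, were differentiated toward heart cells as embryoid bodies, floating aggregates started as hanging drops, in medium with ascorbic acid. Sorted cells carried a green fluorescent protein (GFP) transgene driven by an enhancer fragment of Nkx2-5, a homeobox gene of early heart cells, and the minimal promoter of hsp68. Both fractions, positive and negative for GFP, were taken on days 5, 6, 7 and 8, with 1 array in batch 1 and 1 in batch 2, which makes 8 sorted groups of 2 arrays. The last group, 2 arrays of selected cardiomyocytes, came from another transgenic D3 clone, in which the alpha myosin heavy chain promoter drove neomycin phosphotransferase and the cells were chosen with the antibiotic G418. Its labels give neither a day nor a batch. A GFP-positive cell is therefore a cell in which this transgene was active, and all 18 arrays came from cells of 1 parental line that had been transfected and drug-selected.

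Etv2 is an ETS-type factor that acts for a short time in mesoderm and opens the blood and vessel programs. Tal1, a basic helix-loop-helix protein, binds DNA together with GATA factors through the bridging protein Lmo2, and this complex is needed for all blood cells. Gata2 serves early blood progenitors and endothelium, Gata1 replaces it during red cell and megakaryocyte maturation, and Klf1 switches on globin and other red cell genes. Runx1 is needed for blood stem cells to arise from endothelium, Myb keeps definitive blood progenitors dividing, and Fli1 and Erg are ETS factors of endothelium and of the megakaryocyte and stem cell branches of blood.

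Values are the deposited MAS5 signals on a linear scale, whose scaling between arrays is not given in the sources used here, and array medians lay between 18.2 and 29.3 units. Differences are on the scale of log2(signal + 6.8), each with its standard error (SE), estimated by limma from the 18 arrays together, and a gene is called where its p, adjusted over all genes tested, is under 0.05. Separate cultures are not stated for the 2 arrays of a group, and the p-values therefore reflect array-to-array spread that may be technical. The 2 day 5 arrays of batch 2 stood apart from the other sorted arrays: the summed signal of 6 measured red cell markers was 52.9 on the GFP-negative and 124.5 on the GFP-positive array, against 10342.4 to 29900.8 on the other 14 sorted arrays. Results that rest on them are also given without both. In bulk RNA, fewer cells of a kind and less of a transcript per cell cannot be told apart.

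The promoters of 8 of the 10 genes were in the RefSeq table for GRCm38.p6, with 13 start sites. The 250 bases before the start are shown for 5 genes, written 5′ to 3′ on the gene's strand: Klf1 and Gata1, whose signals ran nearly in parallel, Tal1, Erg, which differed most between the fractions, and Etv2, which fell with time. Tal1 has 2 starts in the table and Erg 3, and the window shown is the 1 that holds a GATA or ETS word, chosen for that. Capitals mark a GATA word, which is AGATAA or otherwise AGATAG, as well as TGATAA and likewise TGATAG, or an ETS word, which is CCGGAA and otherwise CAGGAA, on either strand.
Klf1, chr8:84901732-84901981, forward strand: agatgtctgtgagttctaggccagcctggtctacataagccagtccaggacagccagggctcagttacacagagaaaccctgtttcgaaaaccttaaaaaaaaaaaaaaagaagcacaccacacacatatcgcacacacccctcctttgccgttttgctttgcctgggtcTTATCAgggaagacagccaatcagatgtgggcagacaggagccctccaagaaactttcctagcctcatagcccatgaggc
Gata1, chrX:7967911-7968160, reverse strand: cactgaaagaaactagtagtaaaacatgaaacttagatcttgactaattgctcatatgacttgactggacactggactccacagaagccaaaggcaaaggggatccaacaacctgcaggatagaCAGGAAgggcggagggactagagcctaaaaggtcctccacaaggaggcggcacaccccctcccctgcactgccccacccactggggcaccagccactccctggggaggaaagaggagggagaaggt
Tal1, chr4:115056176-115056425, forward strand: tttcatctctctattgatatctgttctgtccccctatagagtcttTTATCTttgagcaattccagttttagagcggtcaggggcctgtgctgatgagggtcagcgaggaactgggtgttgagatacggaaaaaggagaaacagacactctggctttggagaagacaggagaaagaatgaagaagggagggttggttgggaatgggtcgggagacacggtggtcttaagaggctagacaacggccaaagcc
Erg, chr16:95459349-95459598, reverse strand: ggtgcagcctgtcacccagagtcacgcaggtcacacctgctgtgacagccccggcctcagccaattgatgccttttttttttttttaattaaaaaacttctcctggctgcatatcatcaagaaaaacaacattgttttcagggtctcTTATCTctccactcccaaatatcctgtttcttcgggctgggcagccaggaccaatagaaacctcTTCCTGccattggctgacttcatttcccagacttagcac
Etv2, chr7:30635853-30636102, reverse strand: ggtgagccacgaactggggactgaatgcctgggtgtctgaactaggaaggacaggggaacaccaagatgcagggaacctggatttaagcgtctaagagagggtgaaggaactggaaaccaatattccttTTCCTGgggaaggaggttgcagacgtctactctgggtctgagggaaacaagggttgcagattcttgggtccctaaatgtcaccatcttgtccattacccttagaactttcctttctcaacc
Over the full window of 300 bases, from 250 before to 50 after the start, a GATA word was found in 3 of 13 windows (Klf1, Tal1 and Erg), an ETS word in 6 and an E-box (CANNTG) in 7. Among 32851 RefSeq promoter windows of the same length, the shares were 29.8%, 41.4% and 72.3%. The Klf1 match begins 80 bases before its start site, the Gata1 match 126 and the Etv2 match 121. Such matches describe the letters only and say nothing of binding.

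Etv2 (probe set 1421773_at; GRCm38.p6 chromosome 7, 30633616 to 30636509) was highest on day 5 of batch 2 and lower later. In GFP-positive cells its signal in batches 1 and 2 was 589.5 and 2420.0 on day 5, 307.6 and 900.5 on day 6, 218.3 and 271.7 on day 7, and 212.8 and 165.6 on day 8. In GFP-negative cells it was 291.2 and 959.8, then 217.4 and 422.9, then 158.1 and 140.0, then 107.3 and 84.7. Every GFP-positive array exceeded the GFP-negative array of its day and batch, and every array of days 5 and 6 exceeded every array of days 7 and 8 within its fraction. In selected cardiomyocytes the signal was 13.5 and 21.0, below the filter floor of 22.5.

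Tal1 (1449389_at; chromosome 4, 115056426 to 115071755) and Lmo2 (1454086_a_at; chromosome 2, 103957903 to 103981878), the helix-loop-helix factor and its bridging partner, had similar courses. Tal1 in GFP-positive cells was 946.0 and 735.6 on day 5, 981.6 and 1086.4 on day 6, 584.0 and 953.1 on day 7, and 436.5 and 527.1 on day 8. The GFP-negative values were 551.3 and 175.1, then 1026.1 and 703.4, then 808.1 and 1029.1, then 665.5 and 1131.1. The GFP-positive cells were thus higher on day 5 in both batches and lower on days 7 and 8 in both. Lmo2 in GFP-positive cells was 1503.6 and 920.1, then 1365.4 and 1343.1, then 617.5 and 1222.7, then 657.5 and 817.0. In GFP-negative cells it was 659.3 and 147.1, then 1199.7 and 901.7, then 1048.5 and 1423.0, then 680.9 and 1617.1. All 4 pairs of days 5 and 6 were higher in GFP-positive cells and all 4 of days 7 and 8 were lower. Both genes were low in selected cardiomyocytes, with 56.3 and 58.2 for Tal1 and 71.2 and 75.3 for Lmo2.

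Gata1 (1449232_at; chromosome X, 7959260 to 7976663) and Klf1 (1418600_at; chromosome 8, 84901982 to 84905291), the factors of red cell maturation, were low on day 5 in batch 2 and already high on day 5 in batch 1. Klf1 in GFP-positive cells was 1097.7 and 29.4 on day 5, 1822.1 and 1003.1 on day 6, 1307.2 and 2174.1 on day 7, and 709.6 and 799.9 on day 8. GFP-negative cells had 931.0 and 31.4, then 3105.4 and 871.9, then 2593.1 and 3480.1, then 1372.9 and 3146.2. On day 5 the batches differed far more than the fractions did, and on days 7 and 8 the GFP-negative array of each pair was the higher. Gata1 in GFP-positive cells was 1132.2 and 148.4, then 1124.7 and 1105.8, then 925.7 and 1469.3, then 596.2 and 643.1. The GFP-negative values were 700.5 and 120.1, then 2077.1 and 879.8, then 1696.8 and 2093.2, then 1192.5 and 2186.9. Again the GFP-negative arrays were higher in 4 of 4 pairs of days 7 and 8. In selected cardiomyocytes Gata1 was at 20.0 and 11.6 and Klf1 at 24.7 and 17.5, near the floor.

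Gata2 (1450333_a_at; chromosome 6, 88193891 to 88207032), the GATA factor of progenitors, exceeded its GFP-negative counterpart in 8 of 8 pairs. Its GFP-positive signals were 371.4 and 470.5 on day 5, 226.6 and 534.8 on day 6, 190.8 and 198.9 on day 7, and 178.2 and 148.8 on day 8. The GFP-negative signals were 197.2 and 200.1, then 115.8 and 272.8, then 106.1 and 113.3, then 128.1 and 127.5. The gap between the fractions was smallest on day 8, at 0.46 and 0.21 (log2) in the batches. Its day 5 values in GFP-negative cells differed by only 0.02 between the batches, whereas those of Klf1 differed by 4.62. Selected cardiomyocytes had 38.3 and 30.6.

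Erg (1440244_at; chromosome 16, 95359169 to 95586600) separated the fractions most, in 8 of 8 pairs. It was 383.6 and 46.9 in GFP-positive cells on day 5, 452.3 and 318.3 on day 6, 348.0 and 269.6 on day 7, and 310.2 and 306.6 on day 8. GFP-negative cells had 121.3 and 3.7, then 123.0 and 117.9, then 79.5 and 105.9, then 50.3 and 48.3. From day 6 on every GFP-positive array was above every GFP-negative array. Fli1 (1433512_at; chromosome 9, 32422204 to 32543432), the related ETS factor, was 174.2 and 75.4 in GFP-positive cells on day 5, 176.3 and 184.8 on day 6, 128.6 and 126.2 on day 7, and 130.6 and 107.6 on day 8. The GFP-negative values were 83.1 and 18.5, then 67.0 and 80.1, then 104.6 and 73.6, then 114.3 and 156.6. Fli1 exceeded its GFP-negative counterpart in 7 of 8 pairs, and the day 8 pair of batch 2 ran the other way. In selected cardiomyocytes Erg was at 9.7 and 10.0 and Fli1 at 30.8 and 15.8.

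Runx1 (1422864_at; chromosome 16, 92601466 to 92826074) was 432.9 and 274.0 in GFP-positive cells on day 5, 470.0 and 577.1 on day 6, 234.8 and 596.4 on day 7, and 212.6 and 136.8 on day 8. GFP-negative cells had 201.0 and 61.0, then 439.1 and 385.0, then 398.0 and 373.2, then 325.8 and 633.1. The batches of GFP-positive cells disagreed on day 7, where the GFP-positive cells of batch 2 were higher than the GFP-negative and those of batch 1 lower. In selected cardiomyocytes Runx1 was at 142.1 and 136.7, within the range of the sorted arrays, 61.0 to 633.1. Myb (1450194_a_at; chromosome 10, 21124930 to 21160984) was highest in GFP-positive cells on day 5 in batch 1 and on day 6 in batch 2, and in GFP-negative cells on days 6 and 7. It was 188.9 and 29.6 in GFP-positive cells on day 5, 135.1 and 166.8 on day 6, 72.2 and 118.2 on day 7, and 38.7 and 72.5 on day 8. In GFP-negative cells it was 67.1 and 26.2, then 75.3 and 85.5, then 67.8 and 91.6, then 40.8 and 72.0, and in selected cardiomyocytes 2.8 and 6.6.

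**Figure D1:**
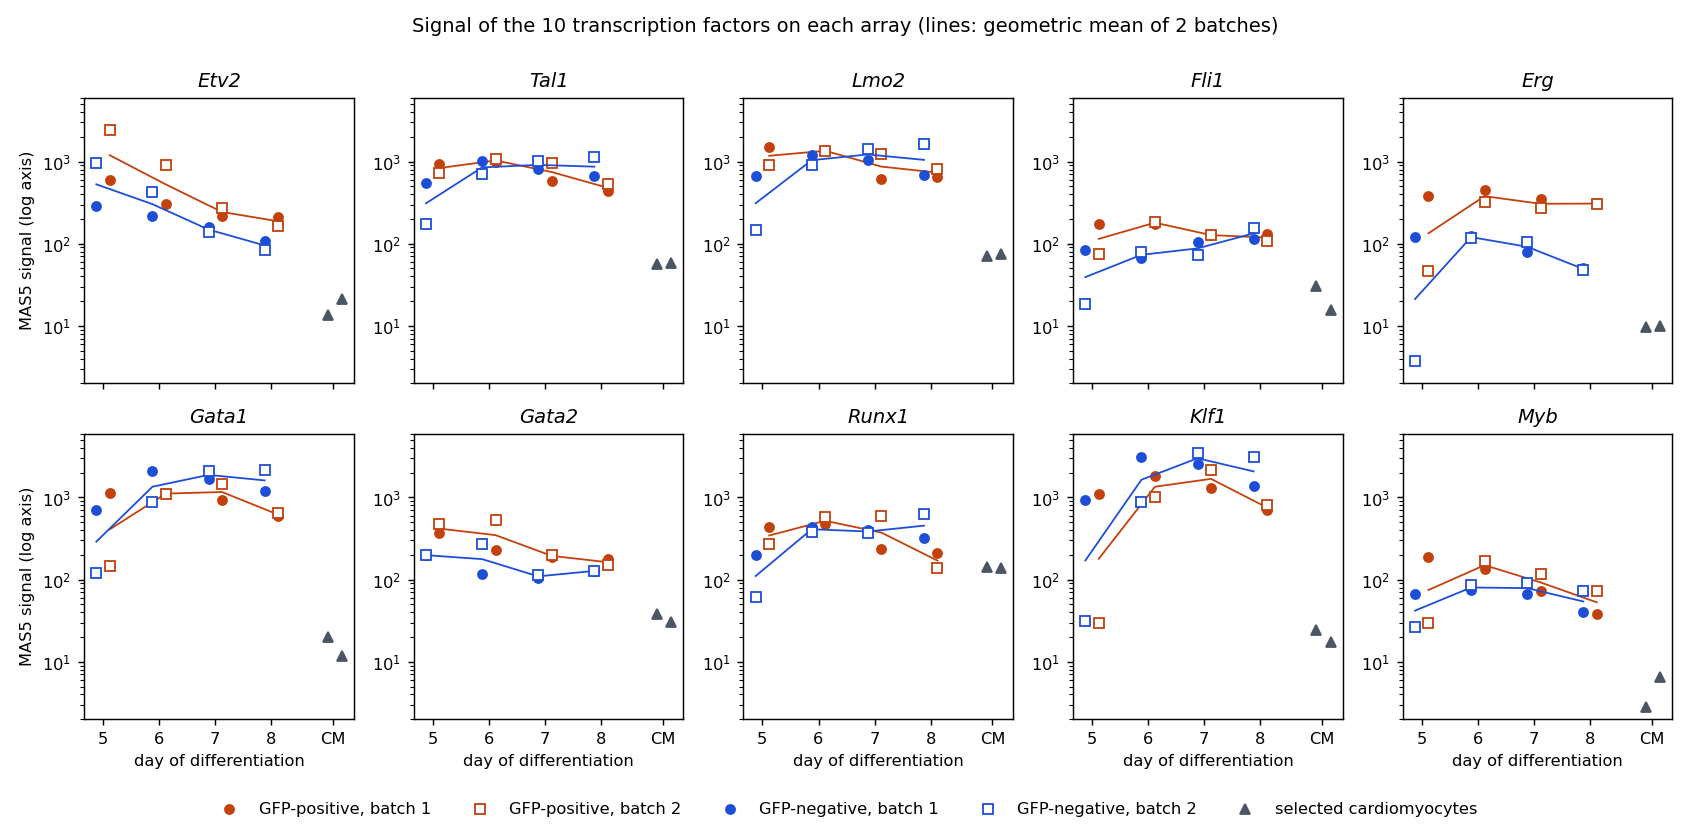
MAS5 signal (log axis) of each of the 10 genes against the day of differentiation, with GFP-positive cells in orange, GFP-negative cells in blue, batch 1 filled, batch 2 open, lines at the geometric mean of the 2 batches, and selected cardiomyocytes (CM) as triangles. Etv2 is at 2420.0 in GFP-positive cells on day 5 of batch 2, where Klf1 is at 29.4 in GFP-positive and 31.4 in GFP-negative cells.

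Setting the 2 fractions against each other asked which genes go with an active Nkx2-5 enhancer. Averaged over days 5 to 8, 2 of the 10 factors were called, both higher in GFP-positive cells, where 2.68% of all genes tested were called 2.14% higher and 0.538% lower. Erg was 3.82-fold higher, a log2 difference of 1.94 ± 0.46 (SE, 8 arrays against 8; limma adjusted p = 0.0444), with 1.99 in batch 1 and 1.89 in batch 2. Gata2 was 1.72-fold higher, at 0.78 ± 0.19 (limma adjusted p = 0.0461), with 0.77 and 0.79 in the batches. Both calls were close to the threshold, and 0 of the 10 genes were called under equal array medians, an offset of 1, no filter on dim genes or no variance trend. With batch as a block in the fit the adjusted p was 0.0159 for Erg and 0.0195 for Gata2, but over 18 fits that each left out 1 array Erg passed in 3 (those lacking either GFP-negative array of day 5, or the GFP-positive one of batch 2 on that day; range of adjusted p 0.00314 to 0.119). Gata2 passed in 2 of these 18 (those lacking the GFP-positive array of batch 1 or the GFP-negative one of batch 2 on day 6; range 0.0149 to 0.113). Without both day 5 arrays of batch 2, Erg had adjusted p = 0.000106 and Gata2 0.107, and Fli1 was then called at 0.64 (adjusted p = 0.0492).

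Of the 8 factors that were not called over all days, Etv2 came nearest by pairs: it was higher in 8 of 8, at 0.89 ± 0.33 (adjusted p = 0.168, and 0.0751 with the batch block). Fli1 and Myb were positive in 7 of 8 pairs, at 0.73 ± 0.25 (adjusted p = 0.139) and 0.45 ± 0.31 (0.476). Tal1, Lmo2 and Runx1 had 0.14, 0.32 and 0.12, and Gata1 and Klf1 -0.46 and -0.62. The median of the 10 was 0.38, against -0.01 over all genes tested.

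On days 5 and 6 alone 9 of the 10 differences were positive, yet limma called 0 of 10, where 0.149% of all genes were called, 0.0523% higher and 0.0972% lower. Such shares of all genes themselves moved when 1 array was left out: the all-gene count ran from 1 to 79 around 20 on days 5 and 6, from 145 to 1383 around 887 on days 7 and 8, from 129 to 586 around 358 over all days, and from 0 to 157 around 19 for the late minus early difference. At an unadjusted p under 0.05 there were 6: Fli1 at 1.29 ± 0.35 (adjusted p = 0.307), Gata2 at 0.99 ± 0.27 (0.307), Lmo2 at 1.13 ± 0.40 (0.52), Tal1 at 0.84 ± 0.30 (0.535), Erg at 1.79 ± 0.66 (0.571) and Runx1 at 0.95 ± 0.36 (0.594). Klf1, at -0.10 ± 1.00, had the widest error. The median of the 10 was 0.96, against -0.03 over all genes. With the GFP-negative array of batch 1 on day 5 left out there were 4 calls, all higher (Erg, Fli1, Lmo2 and Tal1), and without both day 5 arrays of batch 2 there was 1, Erg at 1.61 (adjusted p = 0.0265).

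On days 7 and 8 the 10 differences were split, 5 positive and 5 negative, with 0 called by limma, 1 at an unadjusted p under 0.05, and 6.63% of all genes called, 5.12% higher and 1.51% lower. That 1 was Erg, 4.22-fold higher in GFP-positive cells at 2.08 ± 0.66 (adjusted p = 0.077, and 0.0363 with the batch block). Erg was also called in the 4 fits that left out 1 day 5 array each, at adjusted p between 0.0202 and 0.0372. The negative values belonged to Klf1 (-1.14 ± 1.00, adjusted p = 0.523), Gata1 (-1.03 ± 0.59, 0.304), Runx1 (-0.71 ± 0.36, 0.246), Tal1 (-0.57 ± 0.30, 0.269) and Lmo2 (-0.50 ± 0.40, 0.476), none of them called. Tal1, Lmo2, Gata1 and Klf1 were lower in GFP-positive cells in 4 of 4 pairs, and Runx1 in 3. Without both day 5 arrays of batch 2, Erg was called (adjusted p = 0.000239) and so was Gata1, lower at -1.03 (adjusted p = 0.0404).

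**Figure D2:**
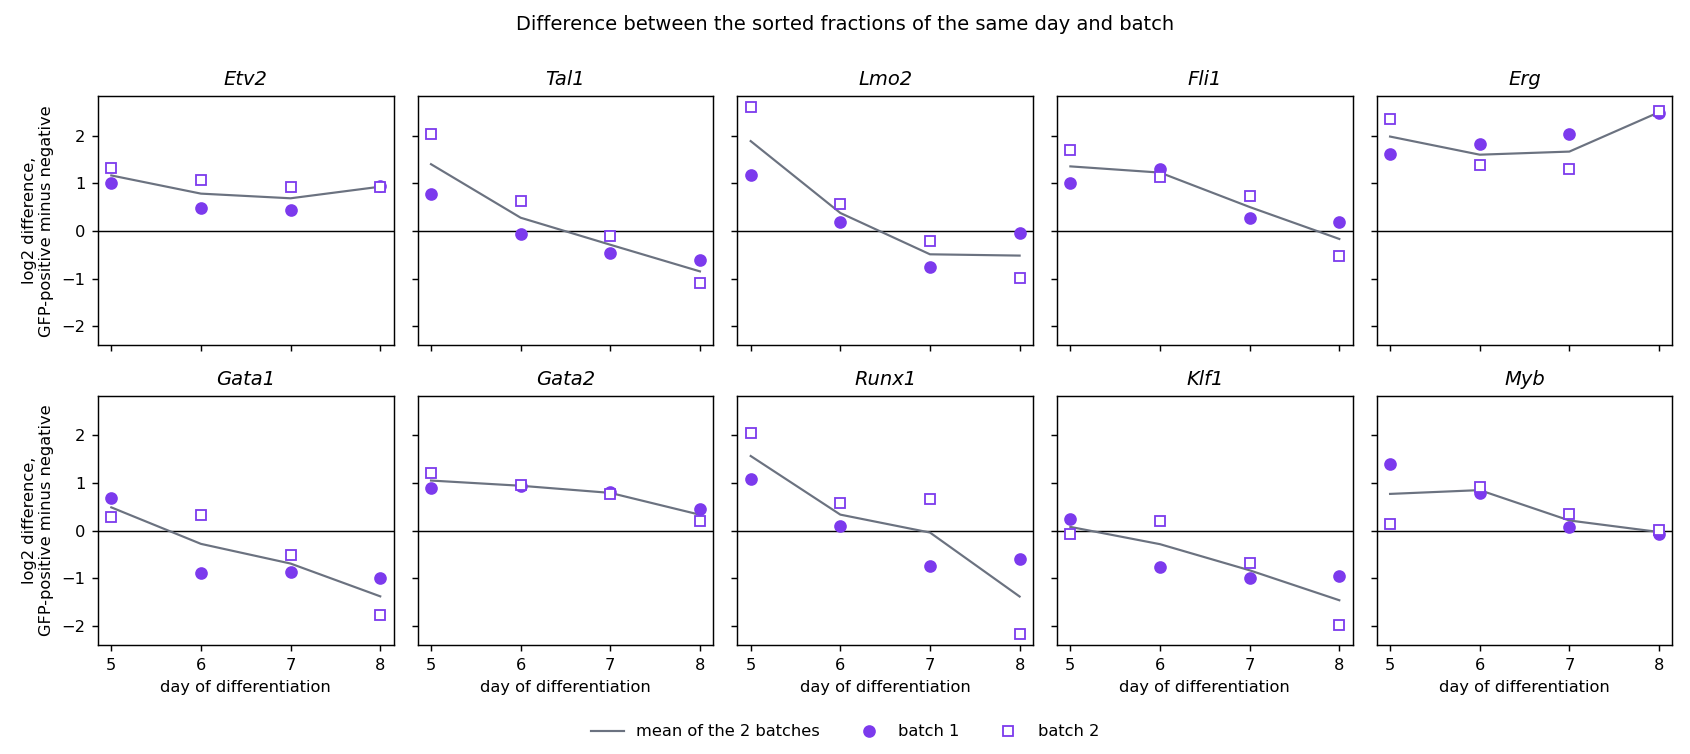
Log2 difference between the GFP-positive and the GFP-negative array of the same day and batch, by day, for each gene; filled circles are batch 1, open squares batch 2, and the line is their mean. Etv2, Erg and Gata2 stay above 0 in 8 of 8 pairs, and Lmo2 is above 0 in the 4 pairs of days 5 and 6 and below in the 4 of days 7 and 8.

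Markers of other cells also differed between the fractions. Of 6 pluripotent cell markers 4 were lower in GFP-positive cells over all days (6 without both day 5 arrays of batch 2), with a median of -1.64, and 2 on days 5 and 6 (0 without those arrays). Their sums on those days were 118.4 to 1613.9 in GFP-positive and 474.2 to 5342.6 in GFP-negative cells, with Utf1 below the floor in the former. Of 6 endoderm markers 2 were higher over all days and 4 on days 7 and 8, with a median of 2.38 there and sums of 4513.0 to 13583.4 against 1182.0 to 3573.1. Of 6 fibroblast markers 1 was lower on days 7 and 8, and of 6 cardiomyocyte markers 1 was higher. The medians of these lists were -1.93 and 2.05, and with the batch block 4 fibroblast markers were lower and 4 cardiomyocyte markers higher. The part of these markers in the differences of the 10 factors was not tested.

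The change of this gap was tested as the late minus early difference between the fractions. It was negative for 9 of the 10 factors, but limma called 0 of 10, with 0.142% of all genes called, 0.142% higher and 0% lower. At an unadjusted p under 0.05 there were 4: Runx1 at -1.66 ± 0.50 (adjusted p = 0.177), Lmo2 at -1.63 ± 0.56 (0.234), Tal1 at -1.41 ± 0.42 (0.174) and Fli1 at -1.12 ± 0.50 (0.366). Each was negative in both batches, for example -1.09 and -2.18 for Lmo2. Erg was the exception at 0.29 ± 0.93. The size for Runx1 depended on its probe set, with -0.03 by 1452531_at. With the GFP-negative array of batch 1 on day 5 left out, Tal1 had -1.81 and Lmo2 -2.16. That fit rests for day 5 GFP-negative cells on the batch 2 array alone, which stood apart. The day 5 pair of batch 2 had 2.03 for Tal1 and 2.59 for Lmo2, against 0.77 and 1.18 in batch 1. On day 6 of batch 2 the pair had 0.62 and 0.57. Without both day 5 arrays of batch 2 the median of the 10 was -1.06, against -1.08 with them.

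The course in time was asked within each fraction, as days 7 and 8 minus days 5 and 6. In GFP-positive cells 2 of the 10 factors fell, where 19.4% of all genes were called, 11.3% higher and 8.03% lower. Etv2 fell by 1.86 ± 0.47 (SE, 4 arrays against 4; limma adjusted p = 0.0174), by 0.96 in batch 1 and 2.76 in batch 2. Gata2 fell by 1.07 ± 0.27 (adjusted p = 0.0173), by 0.64 and 1.51 in the batches. With single arrays left out Etv2 missed the threshold without the GFP-positive array of day 7 in batch 1 or of day 5, 6 or 8 in batch 2, at adjusted p between 0.0642 and 0.0878, and Gata2 without the same arrays, at 0.065 to 0.0812. Without both day 5 arrays of batch 2, Etv2 fell by 1.35 (adjusted p = 0.0387) and Gata2 had -0.99 (0.0699), while Myb was called at -1.18 (0.0347). Runx1, Lmo2, Tal1, Myb and Fli1 also had negative values, between -0.73 and -0.22, none called, while Klf1, Erg and Gata1 had 1.12, 0.41 and 0.32. These 3 differed in sign between the batches, and without both day 5 arrays of batch 2 they had -0.11, -0.31 and -0.40. The median of the 10 was -0.60, against 0.09 over all genes. Under equal array medians, which moved that all-gene median to -0.24, the calls over all genes split into 701 higher and 3358 lower instead of 1516 and 1074, and under quantile normalization into 1117 and 1318.

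In GFP-negative cells 1 of the 10 factors was called, where 12.5% of all genes were called, 7.25% higher and 5.25% lower. Etv2 fell by 1.69 ± 0.47 (adjusted p = 0.0329), by 0.91 in batch 1 and 2.48 in batch 2, and by 1.27 without both day 5 arrays of batch 2 (0.0478). Leaving out a GFP-negative array of day 7 or 8 in either batch, or of day 5 or 6 in batch 2, gave adjusted p between 0.0539 and 0.138. Of the other 9, 8 had positive values: Klf1 2.16 ± 1.00 (adjusted p = 0.172), Gata1 1.46 ± 0.59 (0.118), Lmo2 0.98 ± 0.40 (0.123), Runx1 0.93 ± 0.36 (0.102), Fli1 0.90 ± 0.35 (0.11), Tal1 0.78 ± 0.30 (0.104), Myb 0.14 and Erg 0.12. Gata2 had -0.64 ± 0.27 (0.132). These values came mostly from batch 2: Klf1 had 0.15 in batch 1 and 4.18 in batch 2, and Tal1 -0.04 and 1.60. With the GFP-negative array of batch 1 on day 5 left out, the fit called 7, with 6 higher (Klf1, Gata1, Lmo2, Runx1, Fli1 and Tal1) and Etv2 lower. Without both day 5 arrays of batch 2 it called 2, both lower, Etv2 and Erg (-0.78, adjusted p = 0.0316). Over the same days fibroblast markers rose in 6 of 6 cases in GFP-negative cells (5 without both day 5 arrays of batch 2), from sums of 98.2 to 3916.2 to sums of 3336.1 to 19840.8, and 2 of 6 pluripotent cell markers fell. In GFP-positive cells 3 of 6 endoderm and 3 of 6 cardiomyocyte markers rose, with medians of 3.21 and 2.72. Without both day 5 arrays of batch 2 these medians were 1.99 and 1.66. The pluripotent cell marker median in GFP-negative cells was -1.25, and -0.99 without those arrays. The part of these markers was not tested. All-gene calls in this comparison were 970 higher and 703 lower, against 649 and 1084 under equal array medians.

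**Figure D3:**
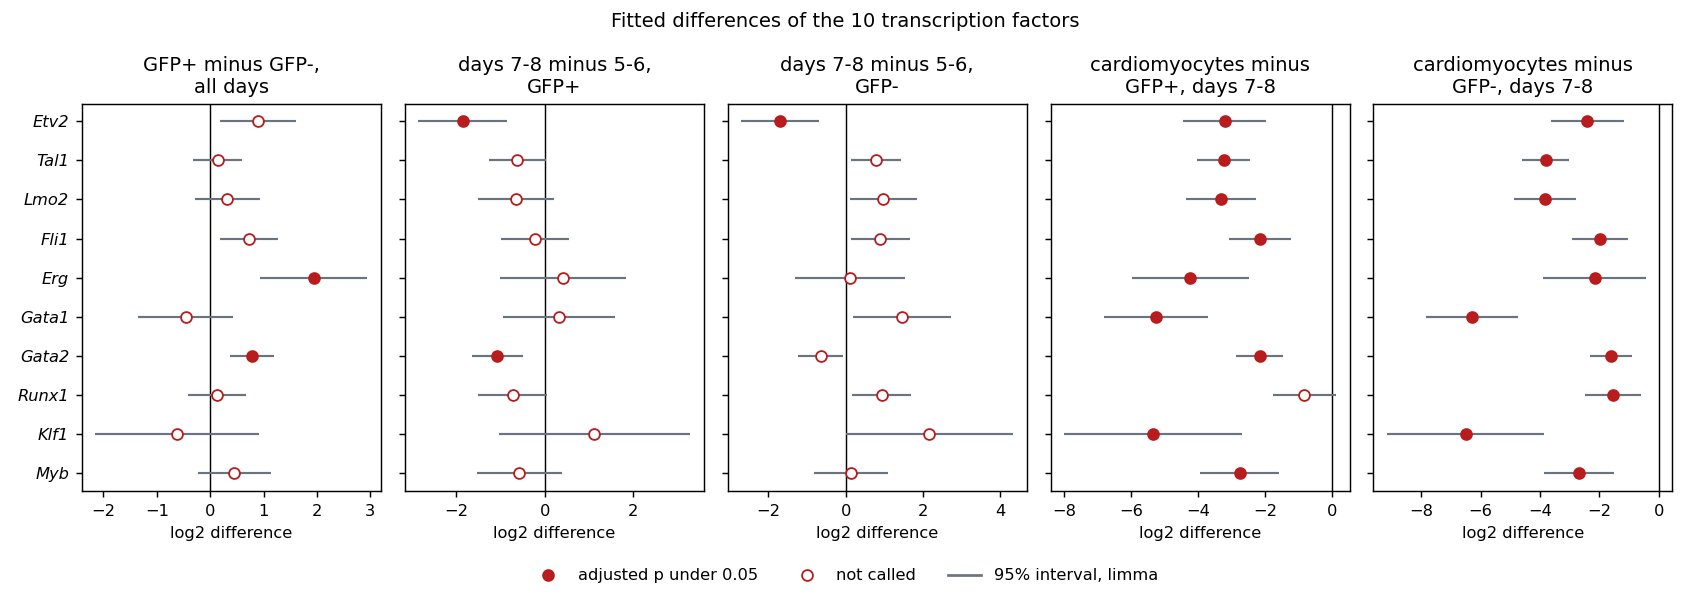
Fitted log2 differences of the 10 genes with 95% intervals in 5 comparisons; filled circles have an adjusted p under 0.05. Intervals of Klf1 and Erg are the widest among the sorted comparisons, Etv2 is called lower with time in both fractions, and 9 and 10 genes are called lower in selected cardiomyocytes.

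Most of the 10 factors were lower in selected cardiomyocytes than in sorted cells. Against GFP-positive cells of days 7 and 8, 9 of the 10 factors were called lower, where 43.3% of all genes were called, 17.9% higher and 25.5% lower. Klf1 was 41-fold lower, a log2 difference of -5.36 ± 1.23 (2 arrays against 4; adjusted p = 0.00348), and Gata1 38.6-fold, at -5.27 ± 0.72 (9.6e-05). Erg was 18.9-fold lower, at -4.24 ± 0.80 (0.00103), Lmo2 10.1-fold, at -3.33 ± 0.49 (0.000163), and Tal1 9.45-fold, at -3.24 ± 0.37 (2.36e-05). Etv2, Myb, Gata2 and Fli1 had -3.22, -2.77, -2.17 and -2.15. Runx1 did not pass, at -0.83 ± 0.44 (0.142), and was called at -1.16 (0.0457) when the GFP-positive array of batch 1 on day 7 was left out. For genes near the floor in cardiomyocytes (Etv2, Erg, Gata1, Klf1, Myb) the offset sets the size of the difference. Fli1, at 30.8 and 15.8 there, was also near the floor, and the offset affects its difference.

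Against GFP-negative cells of days 7 and 8 all 10 factors were called lower, where 46.2% of all genes were called, 20.3% higher and 25.9% lower. Klf1 was 90.6-fold lower at -6.50 ± 1.23 (adjusted p = 0.000858) and Gata1 78.9-fold at -6.30 ± 0.72 (2.12e-05). Lmo2 had -3.83, Tal1 -3.81, Myb -2.68, Etv2 -2.41, Erg -2.16 (adjusted p = 0.042), Fli1 -1.99, Gata2 -1.61 and Runx1 -1.54 (0.0112). Erg missed the threshold in 14 of 18 fits that left out 1 array, and in the 4 that kept it an array of day 5 was missing, with adjusted p up to 0.155 over the 18. Runx1 missed it without either cardiomyocyte array, at 0.0619 and 0.0703. The medians of the 10 were -3.23 and -2.54 in these comparisons, against -0.13 and -0.10 over all genes, which became 0.19 and 0.05 under equal array medians. That scaling turned the all-gene split against GFP-positive cells from 2393 higher and 3405 lower to 3601 and 1905, and against GFP-negative cells from 2713 and 3463 to 3181 and 2566, while 9 of the 10 factors were called lower in each comparison, with Erg lost against GFP-negative cells (-2.01, adjusted p = 0.0668).

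Markers of other cells moved with these values. In selected cardiomyocytes the 6 cardiomyocyte markers summed to 36518.2 and 37075.4, against 8233.3 to 13823.5 in GFP-positive and 1183.1 to 4455.8 in GFP-negative cells of days 7 and 8. Red cell markers summed to 30.5 and 33.5 there, with Hba-x, Hbb-y, Hba-a1, Alas2 and Slc4a1 below the floor, against 20454.4 to 22554.4 and 25466.1 to 29900.8. The 8 leukocyte and megakaryocyte markers summed to 588.7 and 647.1, against 1476.0 to 3608.1 and 1279.5 to 9740.5. The 8 endothelial markers summed to 334.3 and 429.6, with Pecam1 and Tie1 below the floor, against 2366.6 to 4795.1 and 691.3 to 1031.7. The 6 fibroblast markers summed in the cardiomyocytes to 22230.2 and 22321.1 against 2051.4 to 2736.8 in GFP-positive and 3336.1 to 19840.8 in GFP-negative cells, and 4 and 2 of the 6 were called higher. The part of these cell types in the differences of the 10 factors was not tested.

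The partners and related blood factors, such as Lyl1, the Tal1 partners Ldb1 and Tcf3, and the Gata1 cofactor Zfpm1, were looked at as a list of 17 genes. Over all days 1 of 17 was higher in GFP-positive than in GFP-negative cells (2.14% of all genes), and the list median was 0.05. It was Hhex, a homeobox factor of blood and vessel precursors, at 0.57 (adjusted p = 0.0167). In GFP-negative cells 3 of 17 rose with time, the chromatin reader Mllt3 at 2.75 (0.007), the myeloid factor Spi1 at 1.53 (0.00786) and Zfpm1 at 0.99 (0.0252), with 6 of 17 under the batch block and 2 of 17 without both day 5 arrays of batch 2. Of all genes, 7.25% were called higher with time in GFP-negative cells. In GFP-positive cells Mllt3 rose by 2.27 (0.0109) and the repressor Gfi1 had -0.93 (0.0306, called lower), where 11.3% of all genes were higher and 8.03% lower. Gfi1 signals in these cells on days 7 and 8 were 7.3, 14.2, 16.7 and 20.4, below the floor, so the offset affects the size of its difference. In selected cardiomyocytes 13 of 17 were lower than in GFP-positive cells (25.5% of all genes) and 14 of 17 lower than in GFP-negative cells (25.9%). Against the latter Cbfb, the binding partner of Runx1, was the 1 called higher, at 0.57 (adjusted p = 0.0211). Among those lower were Nfe2, a red cell and platelet factor, Ikzf1 of lymphoid cells and Gfi1b, a repressor of red cells and platelets, whose cardiomyocyte signals of 1.1 and 6.4, 1.9 and 3.0, and 2.3 and 18.4 were below the floor, so that the offset sets the size of their differences.

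Of 8 further ETS factors, 4 were higher in GFP-positive than in GFP-negative cells over all days. These were Elk3 at 1.51 (adjusted p = 0.012), Ets2 at 1.34 (0.00673), Ets1 at 1.25 (0.00192) and Etv6 at 0.50 (0.0282). Elk3, Ets2, Ets1 and Etv6 were positive in 8 of 8 pairs, as Erg and Etv2 were. On days 7 and 8 it was Elk3, Ets2, Ets1 and Erf, a repressor of the family, at 1.63, 1.54, 1.37 and 0.83. Of 14 upstream signals and mesoderm genes tested, 4 were higher in GFP-positive than in GFP-negative cells over all days. These were the VEGF receptors Flt1 at 1.55 (0.00634) and Kdr at 1.42 (0.00656), the receptor Notch1 at 1.51 (0.000791) and Nkx2-5 itself at 1.07 (0.0441). The probe table has no probe set for T.

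Genes of vessels and of blood were looked at as further lists. For all lists the shares of all genes called are those given above for each comparison. Of 20 endothelial genes 13 were higher in GFP-positive than in GFP-negative cells over all days, with a median of 1.5. On days 5 and 6 limma called 0 (13 at an unadjusted p under 0.05). On days 7 and 8, 14 were higher, with a median of 1.97. Among them were the matrix protein Mmrn2 at 3.57 (adjusted p = 0.0258), the adhesion molecule Icam2 at 3.03 (0.0156) and the factor Sox17 at 2.69 (0.00615). With the batch block 16 and 18 were higher over all days and on days 7 and 8. Without both day 5 arrays of batch 2 the medians were 1.61 and 1.97. Of 15 red cell genes tested 0 were called by limma over all days (1 at an unadjusted p under 0.05), where 1 was positive and the median was -0.52, and 0 on days 7 and 8 (1 unadjusted), where the median was -0.97. Of 18 leukocyte and megakaryocyte genes tested 0 were called by limma over all days (6 at an unadjusted p under 0.05), and 1 was lower on days 7 and 8, the platelet receptor Gp9 at -1.86 (0.0269), with 4 lower under the batch block and 3 lower and 1 higher without both day 5 arrays of batch 2. No gene of the red cell list had an adjusted p under 0.0603 on days 7 and 8 (Car2, at -0.52).

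**Figure D4:**
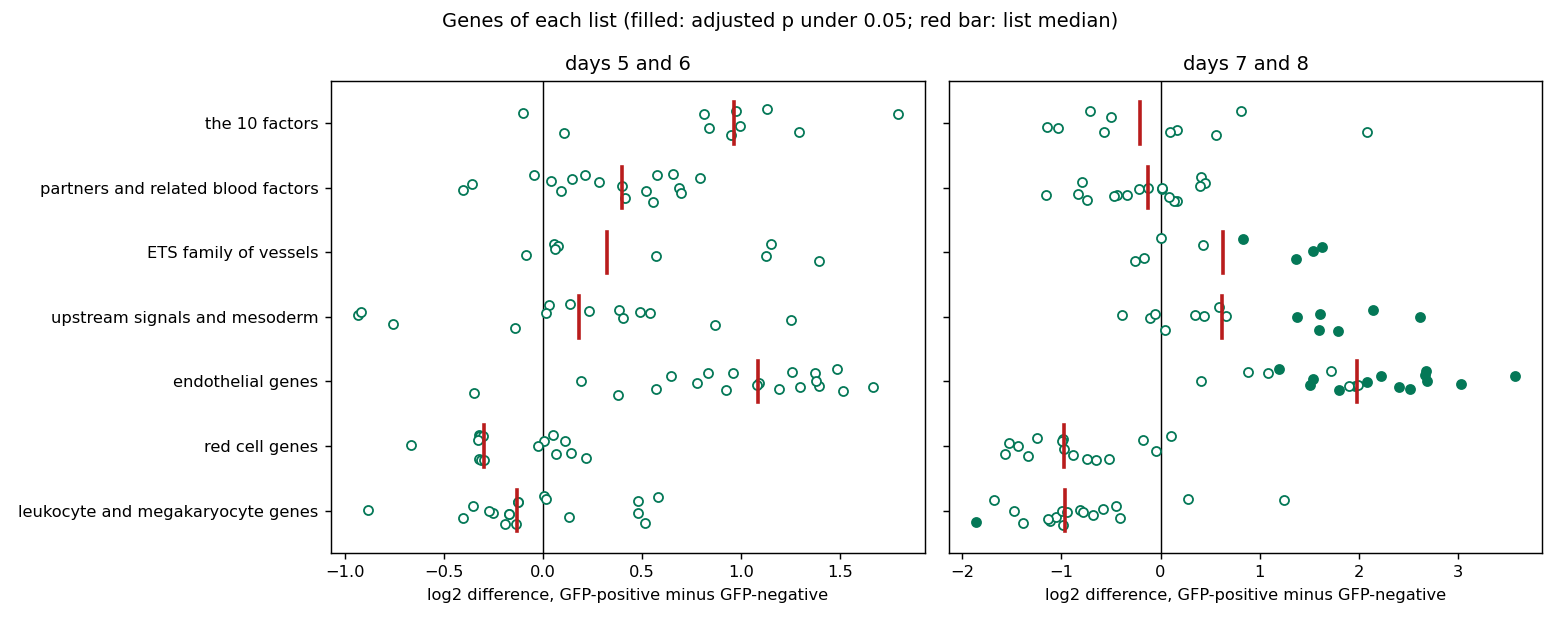
Log2 difference of the GFP-positive from the GFP-negative fraction, on days 5 and 6 (left) and on days 7 and 8 (right), for each gene of 7 lists; filled circles have an adjusted p under 0.05 and the red bar is the list median. On days 7 and 8 the medians run from 1.97 for endothelial genes to -0.97 for red cell genes, with -0.20 for the 10 factors.

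In the comparison of late with early days, in GFP-negative cells 9 of 15 red cell genes rose, for example the embryonic globin Hbb-y at 5.32 (adjusted p = 0.0199), the anion exchanger Slc4a1 at 4.53 (0.0198) and the heme enzyme Alas2 at 3.95 (0.0328), and 5 of 15 in GFP-positive cells (8 with the batch block). Without both day 5 arrays of batch 2 these counts were 4 and 1, and the medians fell from 2.99 to 1.78 and from 1.91 to 0.83. Leukocyte and megakaryocyte genes rose in 11 of 18 cases in GFP-negative and 10 of 18 in GFP-positive cells, led by the platelet chemokine Pf4 at 4.70 and 3.09 and the macrophage receptor Csf1r at 3.80 and 3.12. Without those 2 arrays the counts were 12 and 4. Endothelial genes rose in 11 of 20 cases in GFP-positive cells and 4 of 20 without those arrays, while in GFP-negative cells 1 was higher and 1 lower, with a median of 0.40, or -0.02 without those arrays. Selected cardiomyocytes had 14 of 15 red cell genes lower than GFP-positive cells and 15 of 15 lower than GFP-negative cells, with the embryonic globin Hba-x below the floor in cardiomyocytes at 1.2 and 1.7.

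As a description over the 16 sorted arrays, which share day and batch, the 10 factors formed several sets by Pearson correlation of log2 values. Gata1 and Klf1 had r = 0.982 (Spearman 0.971; r = 0.95 over the 14 arrays without both day 5 arrays of batch 2), and Tal1 and Lmo2 0.971 (0.906; 0.923). Runx1 joined the latter pair, with 0.945 to Tal1 and 0.899 to Lmo2. Etv2 went with Gata2, at 0.855 (0.894; 0.923), and against Klf1, at -0.788, and Gata1, at -0.726, but these last values shrank to -0.48 and -0.33 over the 14 arrays. The value of 0.778 between the ETS factors Fli1 and Erg became 0.472. Outside the 10 genes, the tested genes were ranked by likeness to each, with clone and model names passed over. Highest were Epor, the erythropoietin receptor, for Gata1 (0.978), the coactivator Cited4 for Klf1 (0.985), and Tek, the angiopoietin receptor of endothelium, for Erg (0.966). The septin Septin8 was highest for Etv2 (0.965), Pde4dip for Gata2 (0.962), Cdc42se1 for Fli1 (0.942) and the signal transducer Stat5a for Myb (0.938). For Tal1 it was Abcb10, a mitochondrial transporter of red cells (0.90), for Runx1 Mob1a (0.899) and for Lmo2 Ppfia1 (0.888). Without both day 5 arrays of batch 2 these ran from 0.665 for Lmo2 and Ppfia1 to 0.958 for Gata1 and Epor.

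**Figure D5:**
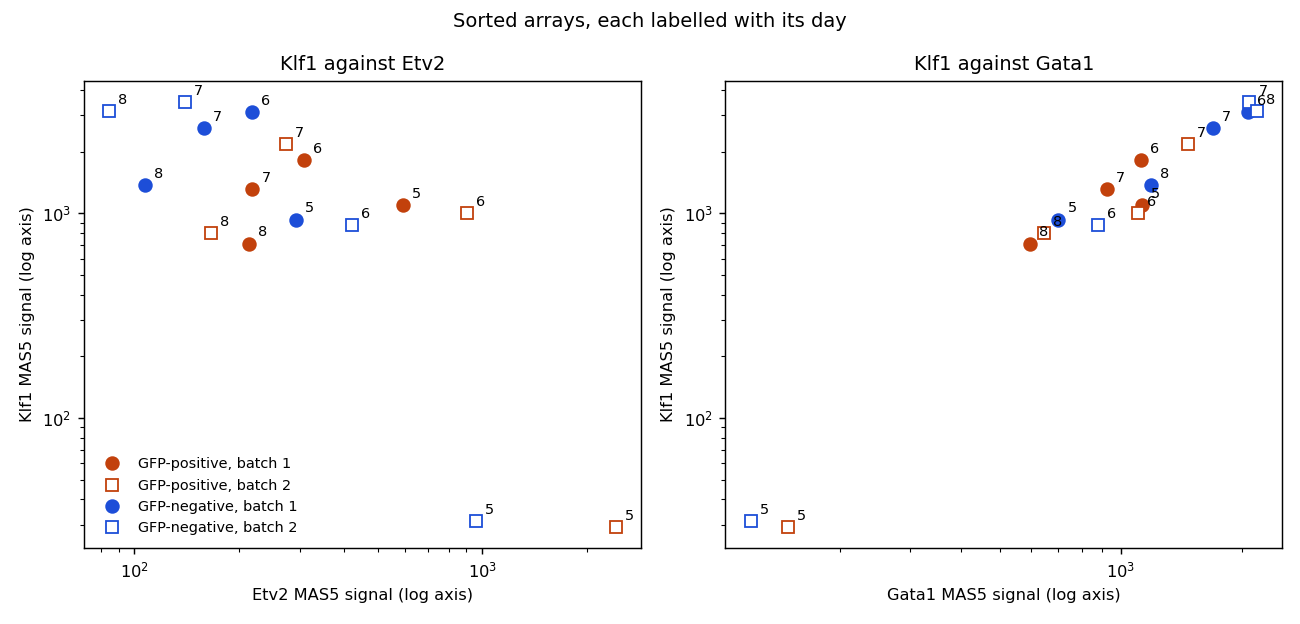
Klf1 signal against Etv2 (left) and against Gata1 (right) on the 16 sorted arrays, both axes logarithmic, each point labelled with its day, colours for the fractions and filled or open symbols for batches 1 and 2. The 2 day 5 arrays of batch 2, at Klf1 29.4 and 31.4, lie far from the other 14, at the high end of Etv2 and the low end of Gata1.

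Other probe sets of the genes were tested in a fit of 28703 probe sets. The second Gata2 probe set, 1428816_a_at, fell with time in GFP-positive cells by 1.18 (adjusted p = 0.0224) as the main one did, and had 0.73 between the fractions over all days (0.116). The second Fli1 probe set was within 0.2 of the first in each of the 3 comparisons named here, with 0.75 over all days, -0.28 with time in GFP-positive and 0.72 in GFP-negative cells. The 6 Runx1 probe sets disagreed. With time in GFP-positive cells 1452531_at rose by 0.59 (adjusted p = 0.0437) while 1422864_at had -0.73. In GFP-negative cells all had positive values with time, from 0.39 by 1452530_a_at to 1.10 by 1440878_at (adjusted p = 0.0496). Between the fractions on days 5 and 6, 1422864_at had 0.95, 1452531_at 0.01 and 1452530_a_at -0.08. The late minus early difference ran from -1.66 by 1422864_at to -0.03 by 1452531_at. Against GFP-positive cells the cardiomyocytes were lower by 1452531_at (-1.40, adjusted p = 0.000299) and 1427650_a_at (-2.30, 0.00446) but not by 1452530_a_at (-0.10, 0.807), so the level of Runx1 in cardiomyocytes depends on the probe set. Against the same cells Myb in cardiomyocytes had -4.75 by 1421317_x_at (adjusted p = 0.000153) and -1.81 by 1422734_a_at (0.00729), against -2.77 by the main probe set. Each was called lower, but the size depended on the probe set. The second Erg probe set, 1425370_a_at, was too dim to test, with 1 of 18 arrays over the floor.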

How the data were processed

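RNA of 18 samples was hybridised to Affymetrix mouse arrays. It had been amplified in 2 rounds with a T7 oligo dT primer, per the labels' protocols, which favours transcript ends. The values deposited are linear signal intensities from GCOS 1.4 and MAS5, per the submitters' processing notes. The number of arrays limits the precision.

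Groups and batches came from the sample titles. Of the probe sets, 64 were controls, 9160 had no symbol in the platform's annotation and 932 had several, and these were not used for genes. Each gene was read by its probe set of highest mean, with type x only where no other existed. A gene was tested if 2 or more arrays reached the median of all values, 22.5. The offset of 6.8 is the 25th percentile of all signals, and it understates differences of dim genes.

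The model had 1 mean per group and used limma 3.58.1 (R 4.3.3, variance trend, 9 residual degrees of freedom), with Benjamini-Hochberg adjustment over all genes of a comparison. It was tested on simulated data with independent noise on each array, no batch effect and no outlying arrays. That test therefore cannot give the error rate in these data. Batch numbers are shared by the fractions and days. Deviations from the group means correlated with r between -0.183 and 0.653 over 28 pairs of groups, and 13 were over 0.1. Since the labels name the number a batch, a fit with batch as a block was run, with the cardiomyocytes given no batch. A group left with a single array took its spread from the other groups. Alternatives covered the offset, scaling, filter, probe sets, variance trend, block and single arrays. Leaving out both day 5 arrays of batch 2 was chosen after seeing the data.

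The 10 genes and the lists were chosen with earlier results of these data known. Named list genes were up to 4 called with the largest change, or else the 2 with the lowest p, of which the text gives part. Promoters and positions are from RefSeq GRCm38.p6, while probe positions were not used here. Plots used Python 3.11.15 and matplotlib 3.10.9.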

Additional observations from a re-analysis of the deposited data

Results flagged for a closer look

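Lmo2, the bridging partner of Tal1, was flagged because every pair of days 5 and 6 lay on one side of 0 and every pair of days 7 and 8 on the other. Its mean log2 difference between GFP-positive and GFP-negative cells was 1.13 on days 5 and 6 and -0.501 on days 7 and 8, with 4 of 4 pairs in each direction. The test of this difference itself, the late minus early difference in limma, gave -1.63 ± 0.56 (SE) with adjusted p = 0.234, which did not pass. No other of the 10 genes had this split of its pairs, and no gap of theirs between early and late days passed the test.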

How the results depend on the processing

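With only 2 arrays a group, and dim values near the floor, differences of dim genes are limited in precision. Of the differences of the 10 genes under alternatives other than leaving out 1 array, 685 kept direction and side of the threshold, 16 lost a call, 8 gained one and 11 reversed; with 1 array left out these were 1328, 61, 21 and 30. The causes were not tested.

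The number of the 10 genes called over all days went from 2 to 0 with an offset of 1, equal array medians, no filter on dim genes or no variance trend, and to 1 with quantile normalization or every probe set by itself. On days 7 and 8 it went from 0 to 1 with an offset of 32 or with batch as replicate block, and to 2 without both day 5 arrays of batch 2. That last setting gave 1 in place of 0 on days 5 and 6, and 2 in place of 1 with time in GFP-negative cells. The batch block changed no other call count of the 10 genes. With 1 array left out the counts ran from 0 to 2 over all days, 0 to 4 on days 5 and 6, 0 to 1 on days 7 and 8, 0 to 2 with time in GFP-positive and 0 to 7 in GFP-negative cells, 0 to 2 for the late minus early difference, and in cardiomyocytes 9 to 10 against GFP-positive and 8 to 10 against GFP-negative cells.

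Reversed without both day 5 arrays of batch 2 were the time differences of Erg in GFP-negative (-0.779) and GFP-positive cells (-0.306), of Gata1 (-0.400) and Klf1 (-0.111) in GFP-positive cells and of Myb in GFP-negative cells (-0.147), and Tal1 over all days (-0.0206). Erg in GFP-negative cells was -0.0809 with an offset of 32. Under equal array medians Fli1 on days 7 and 8 was -0.00436, Gata1 with time in GFP-positive cells -0.0141 and Myb on days 7 and 8 -0.0803, the last -0.112 with quantile normalization.

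With 1 array left out, signs turned within these ranges. With time in GFP-negative cells Erg had -0.779 to 1.02 and Myb -0.147 to 0.435. With time in GFP-positive cells Erg had -0.306 to 1.13, Fli1 -0.505 to 0.064, Gata1 -0.400 to 1.04, Klf1 -0.111 to 2.35 and Myb -1.18 to 0.0316. For the late minus early difference Erg had -0.615 to 1.19, Etv2 -0.672 to 0.34 and Klf1 -2.27 to 0.191. On days 5 and 6 Gata1 had -0.613 to 0.825 and Klf1 -1.33 to 1.13, on days 7 and 8 Myb had -0.107 to 0.293, and over all days Runx1 had -0.0808 to 0.323 and Tal1 -0.0655 to 0.339.

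Over all genes, batch as replicate block called 724 in place of 358 over all days, 35 in place of 20 on days 5 and 6, 1427 in place of 887 on days 7 and 8 and 142 in place of 19 for the late minus early difference. The last count was 118 with an offset of 32, 69 with quantile normalization, 31 with every probe set, and 0 with an offset of 1, no filter, no variance trend or without both day 5 arrays of batch 2. Without those arrays the counts were 4 on days 5 and 6, and 1062 and 885 with time (GFP-positive, then GFP-negative cells), in place of 2590 and 1673. An offset of 1 gave 13 on days 5 and 6, and equal array medians 4059 with time in GFP-positive cells. With every probe set the counts were 1380 on days 7 and 8, 4855 and 2530 with time, and 12020 and 11972 in cardiomyocytes, in place of 5798 and 6176. Of the calls over all genes on days 7 and 8, 685 were higher and 202 lower, against 449 and 516 under equal array medians. With 1 array left out the counts ran from 468 to 3126 with time in GFP-positive and from 315 to 1960 in GFP-negative cells, and in cardiomyocytes from 3722 to 5961 and from 4192 to 6318.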
